A study of Mus musculus with 60 samples.

Results

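The response of Eed knockout cells to the first 12 h of 2i was compared with that of their wild-type parent line, in 12 of the 60 libraries of a time course in mouse embryonic stem cells. The 12 libraries are all those of line 1A, Eed knockout (EED KO in the labels, Eed KO here) and wild type (1A WT), at 12 h and at 0 h, with 3 biological replicates in each of the 4 groups. Cells grew on gelatin in serum with LIF, and 2i was the addition of CHIR99021 at 3 µM, an inhibitor of the kinase GSK3, and PD0325901 at 1 µM, an inhibitor of the ERK kinase MEK. The 0 h cells had serum and LIF without either inhibitor, and serum and LIF were thus shared by every group. Eed KO is a Cas9-edited derivative of 1A, so each genotype is 1 line, and the replicates measure the spread between cultures of that line and not between independent knockouts. Ezh2 knockout cells of the same line (1A Ezh2 KO) and a second wild-type line (V19 WT) at the same 2 times were used beside them, and all 60 libraries shared 1 fit.

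The quantity reported is a difference of response on the log2 scale: the change over 12 h in Eed KO minus the change over 12 h in 1A WT. It equals the difference between the lines at 12 h minus their difference at 0 h, so a gene that reaches one level from unequal starting levels has a difference of response. 0 h levels are therefore given per library or, in parentheses after a difference, as "0 h" with the log2 difference of level between the lines at 0 h (Eed KO minus 1A WT). Levels are CPM, read counts scaled to a common library total, which compare 1 gene between libraries and not different genes. A gene was called at an edgeR quasi-likelihood adjusted p under 0.05 over 15083 genes tested, and "rose", "fell", "higher" and "lower" are used of calls. The material is bulk RNA, in which fewer expressing cells and less RNA per cell cannot be told apart.

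As background, Polycomb repressive complex 2 (PRC2) methylates lysine 27 of histone H3 and keeps developmental genes at low expression in embryonic stem cells. Eed is a core subunit that binds the methylated histone and is needed for the activity, while Ezh2 is its main methyltransferase, for which Ezh1 can partly stand in. 2i blocks the ERK pathway, which drives exit from pluripotency, and relieves the restraint that GSK3 puts on beta-catenin. Cells then move from the mixed state found in serum towards the naive ground state, with high Nanog, Esrrb and Tbx3 and low expression of genes of the formative and primed state such as Otx2.

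Eed, the deleted gene, had 28.2, 26.5 and 21.2 CPM in Eed KO at 12 h and 20.9, 21.1 and 27.7 CPM at 0 h, against 254, 246 and 283 CPM in 1A WT at 12 h and 384, 346 and 339 CPM at 0 h. Every Eed KO library was thus far below every 1A WT library (chromosome 7, 89603862 to 89630184, GRCm39). Eed fell over the 12 h in 1A WT (-0.45 ± 0.10, edgeR adjusted p = 0.000243). The remaining RNA of Eed KO did not pass the test of change (0.10 ± 0.13, edgeR adjusted p = 0.53). The difference was 0.55 ± 0.16 (edgeR adjusted p = 0.0196), and its call was lost when any 1 of 6 of the libraries was left out. Ezh2 (-0.13 ± 0.10, edgeR adjusted p = 0.442, 0 h -0.25) and Suz12 (-0.21 ± 0.15, edgeR adjusted p = 0.413, 0 h 0.46), the other core subunits, did not pass.

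Library totals were 3356091 to 7128250 reads. 2 libraries stand apart: replicates 1 and 3 of Eed KO at 12 h deviated from their group mean by 0.257 and 0.247 log2 units (root mean square over genes of at least 10 CPM), against 0.0934 to 0.13 in the 9 libraries of the other groups and 0.115 in replicate 2. The 2 deviate in opposite directions along gene length. Their slopes of deviation on log2 exon length were -0.085 and 0.063, and mitochondrial genes took 0.761 and 2.05% of their counts, against 0.929 to 1.48% in the 9 libraries of the other groups. Over the 9390 genes of at least 10 CPM the median difference of response went with exon length, at 0.16 in the shortest genes and -0.15 in the longest (medians of 5 equal bins), and the part of length in the calls below was not tested beyond the counts that follow. The cells carried pluripotency markers, with Pou5f1 at 1301, 970.1 and 856 CPM in Eed KO at 12 h and 1223, 1274 and 1285 CPM in 1A WT at 12 h. Levels of such markers were not equal between the lines. Of 9 core pluripotency genes, 8 were lower and 1 higher in Eed KO at 0 h, and 7 were lower and none higher at 12 h. The 9 summed to 3330 to 4272 CPM in Eed KO at 12 h, against 5570 to 5903 CPM in 1A WT at 12 h. The 10 tested fibroblast and feeder markers summed to 73.8 to 78.3 CPM in Eed KO at 12 h and 79.5 to 85.9 CPM at 0 h, against 22.9 to 23.8 CPM in 1A WT at 12 h and 28.0 to 32.8 CPM at 0 h. 1 of the 10, Pdgfrb, was called for the difference of response, lower.

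The 12 h responses of the lines differed for 1665 of 15083 genes (11.0%). Of these, 793 were higher in Eed KO (5.26% of genes tested) and 872 lower (5.78%). Counts within the gene lists below are to be read against these shares. A difference of at least 2-fold was reached by 313 of the higher and 244 of the lower genes. In 1645 of the 1665 called genes the 3 Eed KO libraries at 12 h, each against the Eed KO mean at 0 h, did not overlap the 3 libraries of 1A WT, as was so for 6054 of all 15083 genes. The median over all genes was -0.011. The count was 1165 without Eed KO 12 h replicate 1 and 2553 without Eed KO 12 h replicate 3, and 1101 with replicate 2 alone for that group, of which 1010 were among the 1665 and all of the same sign. With a trend on gene length taken out of every library it was 2112, 1513 of them shared. A filter at a mean of 1 CPM moved the split, with 674 of 1848 calls higher (36.5%, against 47.6% of the 1665).

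Eed KO itself responded at 7560 genes (50.1%), 3774 of which rose (25.0%) and 3786 fell (25.1%). 1A WT responded at 6096 genes (40.4%), with 2975 risen (19.7%) and 3121 fallen (20.7%). The 793 higher differences came from several patterns. In 155 genes both lines fell, Eed KO by less, in 229 only 1A WT had a called fall, in 293 only Eed KO had a called rise, in 40 both rose and in 68 Eed KO rose while 1A WT fell. Among the 872 lower differences, both lines rose in 143 and both fell in 125, a called rise was seen in 1A WT alone for 240 and a called fall in Eed KO alone for 296, and in 59 genes Eed KO fell while 1A WT rose. In 8 of the higher and 9 of the lower genes neither response passed on its own.

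**Figure D1:**
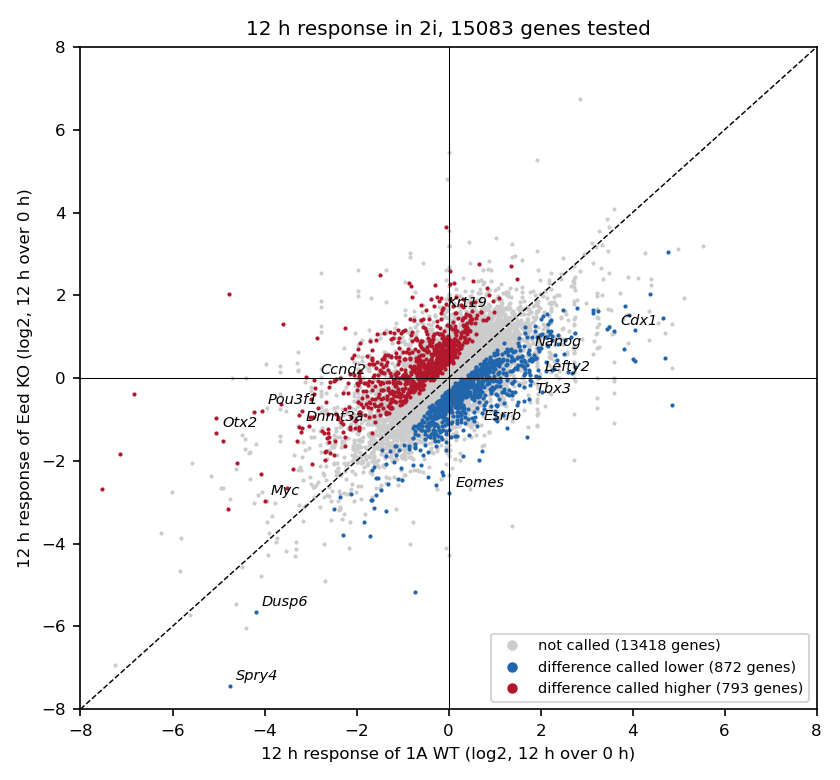
Change over 12 h of 2i in Eed KO (vertical axis, log2) against the change in 1A WT (horizontal axis, log2) for the 15083 genes tested, with the 793 genes of higher difference in red, the 872 of lower difference in blue and the diagonal of equal response dashed. Otx2 lies at -1.34 in Eed KO and -5.06 in 1A WT, and Ccnd2 at -0.046 in Eed KO and -2.92 in 1A WT, while Spry4 and Dusp6 lie below the diagonal because they fell further in Eed KO.

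The lines started apart. At 0 h 7459 genes (49.5%) differed between Eed KO and 1A WT, 3973 higher in Eed KO (26.3%) and 3486 lower (23.1%). At 12 h 8211 genes did (54.4%), 4300 higher (28.5%) and 3911 lower (25.9%). Of the 793 genes with a higher difference of response, 187 were already higher in Eed KO at 0 h, 335 were lower and 271 did not differ by the test. At 12 h 507 were higher and 81 lower. Of the 872 with a lower difference, 409 were higher in Eed KO at 0 h, 183 were lower and 280 did not differ by the test. At 12 h 150 were higher and 527 lower. The 0 h libraries enter both quantities with opposite sign, so the counts at 0 h are given as levels and not as a relation.

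A set of 2i-responsive genes chosen in V19 WT, whose libraries enter neither response, shows the size of the responses. In V19 WT 6314 genes responded (41.9%), and those that changed at least 2-fold were taken. The 886 that rose there had a median response of 0.86 in Eed KO and 1.15 in 1A WT, and 575 passed as risen in Eed KO and 646 in 1A WT. The difference of response was lower for 163 of them and higher for 12 (19.8% called in all, against 11.0% of all genes), with a median of -0.35. Their median level difference between the lines was 0.69 at 0 h and 0.30 at 12 h. The 926 that fell in V19 WT had a median response of -1.12 in Eed KO and -1.41 in 1A WT, with 705 fallen in Eed KO and 815 in 1A WT. The difference was higher for 193 of these and lower for 38 (24.9% called), with a median of 0.29. Both sets thus moved in the same direction in both lines, and by less in Eed KO at the median. The Ezh2 KO medians were 1.31 and -1.44. Genes that respond in Eed KO and not in a wild type could not enter these sets, so the medians do not describe its whole response. Over all genes, called responses of at least 2-fold numbered 926 risen and 998 fallen in Eed KO, against 769 and 952 in 1A WT.

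Of 20 naive pluripotency factors tested, which 2i maintains, 12 had a lower difference of response, 7 did not pass and 1, Dppa3 (0.89, 0 h -0.0021), was higher, with a median of -0.51. In their own responses 5 rose and 12 fell in Eed KO, against 9 risen and 6 fallen in 1A WT. The count of lower members was 8 with the 12 libraries fitted alone. The whole list summed to 3909 to 5324 CPM in Eed KO at 12 h and 3589.6 to 3678 CPM at 0 h, against 5286 to 5557 CPM in 1A WT at 12 h and 3567 to 3615 CPM at 0 h.

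Tbx3, a T-box repressor that sustains self-renewal, had 150.5, 149 and 176 CPM in Eed KO at 12 h and 235, 218 and 229 CPM at 0 h, against 101, 106 and 101 CPM in 1A WT at 12 h and 28.6, 31.5 and 31.5 CPM at 0 h (chromosome 5, 119808600 to 119822789). It fell in Eed KO and rose in 1A WT, for a difference of -2.27 ± 0.15 (edgeR adjusted p = 3.85e-17). Its level stayed higher in every Eed KO library than in any 1A WT library, as it was at 0 h (2.90, edgeR adjusted p = 1.57e-28). Esrrb, an orphan nuclear receptor of the naive network, also took opposite directions. It had 152, 195 and 219.8 CPM in Eed KO at 12 h and 438, 419 and 420.0 CPM at 0 h, against 593, 615 and 561 CPM in 1A WT at 12 h and 362, 366 and 424 CPM at 0 h. The difference was -1.79 ± 0.14 (edgeR adjusted p = 1.13e-14), from 0 h levels that did not differ by the test (0.15, edgeR adjusted p = 0.196). The 3 Eed KO libraries at 12 h are the lowest of the 12.

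Nanog, the homeodomain factor of ground-state pluripotency, rose in both lines. It had 607, 688 and 712 CPM in Eed KO at 12 h and 445, 428 and 439 CPM at 0 h, against 732, 738 and 766 CPM in 1A WT at 12 h and 226, 228 and 223 CPM at 0 h. The 12 h levels did not differ by the test (-0.15, edgeR adjusted p = 0.108), while Eed KO started higher (0.96, edgeR adjusted p = 3.21e-14), and the difference of response was -1.11 ± 0.12 (edgeR adjusted p = 4.19e-10). Tfcp2l1, a factor downstream of STAT3, followed with -1.37 ± 0.22 (edgeR adjusted p = 1.4e-05, 0 h 0.88): it rose in 1A WT (1.64 ± 0.16, edgeR adjusted p = 5.29e-12) and did not pass in Eed KO (0.28 ± 0.15, edgeR adjusted p = 0.132). Nr0b1 (Dax1), a repressor that interacts with Oct4, fell in both lines and further in Eed KO (-1.34 ± 0.14, edgeR adjusted p = 1.23e-10, 0 h -1.08), to 20.8, 18.7 and 16.0 CPM, against 95.3, 95.3 and 101 CPM in 1A WT at 12 h.

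Of 9 core pluripotency genes, 3 had a lower difference (Sox2, Tdgf1 and Fbxo15) and none a higher one (median -0.17). The call of Fbxo15 was lost under 16 of 23 alternatives, those of Sox2 and Tdgf1 under none. The list held 3 higher and 2 lower in the RUV-normalized values (median -0.0097), 1 higher and 2 lower with V19 WT in place of 1A WT (median 0.098), and 2 higher and 2 lower without Eed KO 12 h replicate 2. Sox2, the partner of Oct4 on DNA, stood at 120.3, 122 and 127 CPM in Eed KO at 12 h and 291, 295 and 306 CPM at 0 h, against 438, 445 and 439 CPM in 1A WT at 12 h and 553, 544 and 553 CPM at 0 h. Its difference was -0.95 ± 0.082 (edgeR adjusted p = 4.78e-13), and the 4 groups do not overlap. Tdgf1, the Nodal co-receptor Cripto, differed by -0.55 ± 0.13 (edgeR adjusted p = 0.0029, 0 h -0.31). Pou5f1, which encodes Oct4, did not pass (0.38 ± 0.13, edgeR adjusted p = 0.0512, 0 h -0.66), and its Eed KO libraries at 12 h span 856 to 1301 CPM.

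Of 21 genes of the formative and primed state tested, 10 had a higher difference of response and 1, Dusp6, which is also an ERK target, a lower one, and 10 did not pass (median 0.47). The responses counted 15 fallen in Eed KO and 18 in 1A WT. The 10 included the transcription factors Otx2, Pou3f1, Zic2, Sox4 (1.82, 0 h -0.64), Hes6 (1.98, 0 h -2.0), Sall2 (1.39, 0 h -1.83), Lef1 (1.17, 0 h -1.22) and Foxd3 (0.71, 0 h -0.20). Without any 1 library the count remained 10 higher and 1 lower.

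Otx2, a homeodomain factor that directs cells out of the naive state, was at 9.69, 8.24 and 11.2 CPM in Eed KO at 12 h and 26.3, 21.6 and 26.2 CPM at 0 h, against 0.947, 0.961 and 0.203 CPM in 1A WT at 12 h and 28.4, 22.7 and 24.7 CPM at 0 h (chromosome 14, 48894238 to 48905101). The 0 h levels did not differ by the test (-0.036, edgeR adjusted p = 0.861), and the response was -1.34 ± 0.17 (edgeR adjusted p = 3.48e-09) in Eed KO and -5.06 ± 0.28 (edgeR adjusted p = 4.86e-22) in 1A WT. The difference of 3.72 ± 0.37 (edgeR adjusted p = 4.75e-11) was the largest positive one among called genes of at least 5 CPM, and at 12 h every Eed KO library was above every 1A WT library. Pou3f1 (Oct6), a POU factor of the primed epiblast, had 54.4, 39.0 and 33.7 CPM in Eed KO at 12 h and 71.3, 78.8 and 64.0 CPM at 0 h, against 8.52, 8.33 and 9.76 CPM in 1A WT at 12 h and 147, 156 and 139 CPM at 0 h. It began lower in Eed KO and ended higher, with a difference of 3.27 ± 0.21 (edgeR adjusted p = 1.6e-17). Zic2, a zinc-finger factor, differed by 1.71 ± 0.18 (edgeR adjusted p = 2.91e-10, 0 h -0.45).

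Dnmt3a, a de novo DNA methyltransferase, shows the other way to a large difference. It had 80.6, 78.6 and 71.4 CPM in Eed KO at 12 h and 169.5, 173 and 178 CPM at 0 h, against 71.2, 71.3 and 78.5 CPM in 1A WT at 12 h and 676, 700.0 and 713 CPM at 0 h. The 12 h levels overlap and did not differ by the test (0.059, edgeR adjusted p = 0.657), while at 0 h Eed KO was lower (-2.0, edgeR adjusted p = 6.53e-24). The difference of response was 2.06 ± 0.14 (edgeR adjusted p = 3.01e-16). Of the 12 DNA methylation enzymes tested (25% called), Tet3, which oxidises methylcytosine, was also higher (1.00 ± 0.25, edgeR adjusted p = 0.00549) and Uhrf2 lower (-0.83 ± 0.12, edgeR adjusted p = 9.52e-07, 0 h 0.81). The other 9 did not pass, among them Dnmt3b (0.14 ± 0.14, edgeR adjusted p = 0.608, 0 h -0.29) and Dnmt3l (-0.33 ± 0.16, edgeR adjusted p = 0.183, 0 h 0.12). Tet3 fell in 1A WT and did not pass in Eed KO. It had 22.2, 23.0 and 20.7 CPM in Eed KO at 12 h and 25.5, 20.2 and 24.8 CPM at 0 h, against 8.52, 8.97 and 8.54 CPM in 1A WT at 12 h and 17.8, 17.5 and 21.4 CPM at 0 h.

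**Figure D2:**
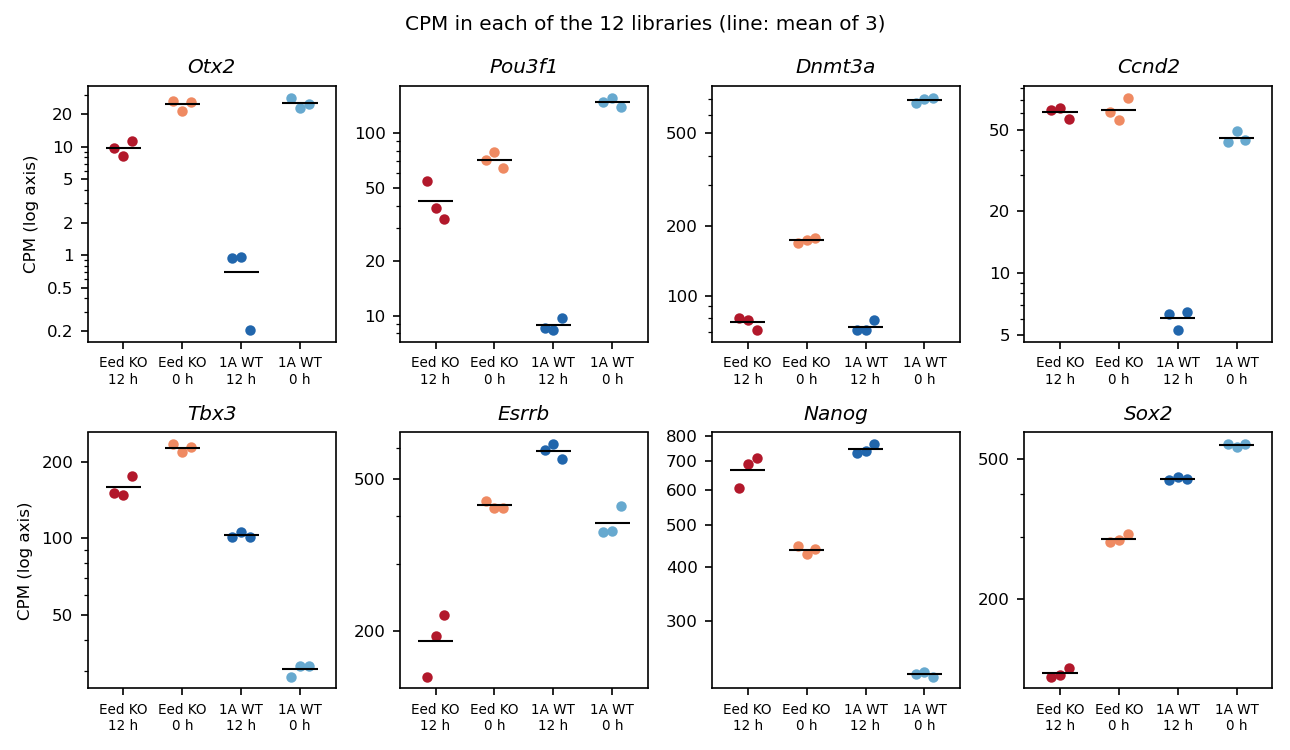
CPM on a log axis of 8 genes in each of the 12 libraries, 3 points per group of Eed KO at 12 h, Eed KO at 0 h, 1A WT at 12 h and 1A WT at 0 h, with a line at the mean. Otx2, Pou3f1 and Ccnd2 are low in the 1A WT 12 h libraries alone, Esrrb and Sox2 are lowest in the Eed KO 12 h libraries, and Dnmt3a and Nanog end at nearly one level from different starts.

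The largest differences also included genes of cell cycle, signalling and development. Ccnd2, a D-type cyclin that drives entry into S phase, held 62.1, 63.9 and 56.4 CPM in Eed KO at 12 h and 60.8, 55.6 and 71.6 CPM at 0 h, against 6.31, 5.28 and 6.51 CPM in 1A WT at 12 h and 43.4, 49.0 and 44.5 CPM at 0 h. It fell in 1A WT and did not pass in Eed KO (2.88 ± 0.18, edgeR adjusted p = 1.68e-17). Wt1, the Wilms tumour zinc-finger factor, fell in both lines and by less in Eed KO (3.42 ± 0.34, edgeR adjusted p = 4.75e-11), from 0 h levels of 7.24, 7.14 and 7.77 CPM in Eed KO and 23.1, 25.2 and 23.9 CPM in 1A WT. Car4, a membrane-bound carbonic anhydrase, had 49.3, 53.9 and 71.5 CPM in Eed KO at 12 h and 56.2, 70.2 and 58.4 CPM at 0 h, against 4.10, 4.48 and 5.08 CPM in 1A WT at 12 h and 26.2, 27.9 and 21.4 CPM at 0 h (2.42 ± 0.22, edgeR adjusted p = 1.87e-12). Sema6a, a semaphorin, differed by 2.37 ± 0.35 (edgeR adjusted p = 1.44e-06, 0 h -1.83) and Gna14, a G protein subunit, by 2.35 ± 0.39 (edgeR adjusted p = 1.52e-05, 0 h -3.37). S1pr1, the receptor of sphingosine-1-phosphate, rose in both lines, with the larger log2 change in 1A WT (-3.55 ± 0.56, edgeR adjusted p = 5.6e-06). It had 9.97, 15.0 and 13.8 CPM in Eed KO at 12 h and 9.29, 11.2 and 8.44 CPM at 0 h, against 3.94, 4.96 and 3.46 CPM in 1A WT at 12 h and 0.296, 0.163 and 0.254 CPM at 0 h. The 1A WT libraries at 0 h held 4 reads of S1pr1 together, so the log2 change of 1A WT starts from very few reads. Tmem54 (2.59 ± 0.35, edgeR adjusted p = 2.07e-07, 0 h -1.21) overlaps exons of Hpca, and reads of the 2 cannot be told apart without strand.

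Most targets of the ERK pathway fell in both lines. Of 20 ERK feedback genes and targets tested, 16 fell in Eed KO and 17 in 1A WT. The difference of response was lower for 5 and higher for 5 (50% called, median -0.28), so the list did not move in 1 direction. Spry4, Dusp6, Spry2, Spry1 and Ccnd1 were the 5 lower members. Spry4, which restrains receptor signalling to Ras, had 1.14, 0.883 and 0.781 CPM in Eed KO at 12 h and 163, 147 and 168 CPM at 0 h, against 8.05, 9.93 and 6.30 CPM in 1A WT at 12 h and 213, 221 and 234 CPM at 0 h. The difference was -2.69 ± 0.31 (edgeR adjusted p = 5.78e-09), with every Eed KO library at 12 h below every other library. Dusp6, the ERK phosphatase, differed by -1.46 ± 0.23 (edgeR adjusted p = 4.53e-06, 0 h -0.56), and Spry2, a relative of Spry4, by -0.52 ± 0.10 (edgeR adjusted p = 0.000294, 0 h -0.27). Spry1 (-0.78, 0 h 0.27) and Ccnd1 (-0.48, 0 h -1.18) were the others. Exons of Ccnd1 overlap those of LTO1, and its call was lost in the RUV-normalized values and with replicate 2 alone for Eed KO at 12 h.

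The higher members were the transcription factor Myc, Ier3, Dusp5, Phlda1 and Mapk3, while the ERK-dependent factors Etv5 (-0.30 ± 0.13, edgeR adjusted p = 0.146, 0 h -0.84) and Etv4 (-0.22 ± 0.21, edgeR adjusted p = 0.54, 0 h -0.37) did not pass. Myc fell in both lines, to 8.26, 11.0 and 9.12 CPM in Eed KO, against 8.68, 11.7 and 11.4 CPM in 1A WT, and the groups overlap at 12 h. It began at 85.2, 75.8 and 66.9 CPM in Eed KO and 166, 167 and 174 CPM in 1A WT, and the difference of response was 1.02 ± 0.18 (edgeR adjusted p = 3.2e-05). The other 4 differed by less: Ier3 (0.96, 0 h 0.51), Dusp5 (0.93, 0 h -0.26), Phlda1 (0.65, 0 h 0.96) and Mapk3 (0.49, 0 h -1.09). Of 18 immediate early genes tested, 11 had a higher difference and none a lower one (median 0.72), with 6 risen and 7 fallen in Eed KO and 3 risen and 11 fallen in 1A WT. The 11 became 5 without 1A WT 0 h replicate 2, 7 in the authors' RUV-normalized values, 7 with Eed KO 12 h replicate 2 alone, and 2, with 2 lower, when V19 WT stood in place of 1A WT. Zfp36, which encodes an RNA-binding protein that speeds mRNA decay, was called under every alternative. It had 31.9, 27.2 and 27.7 CPM in Eed KO at 12 h and 30.4, 30.7 and 31.7 CPM at 0 h, against 8.52, 9.13 and 11.4 CPM in 1A WT at 12 h and 29.2, 36.1 and 32.8 CPM at 0 h (1.66 ± 0.18, edgeR adjusted p = 1.82e-09). Only the 1A WT 12 h libraries are low. Btg2, an antiproliferative cofactor, rose in Eed KO and did not pass in 1A WT (0.73 ± 0.17, edgeR adjusted p = 0.00165, 0 h 1.65), and Srf, the factor that binds the CArG box of many of these genes, differed by 0.37 ± 0.12 (edgeR adjusted p = 0.0355, 0 h 0.05).

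GSK3 inhibition was read through Wnt and beta-catenin targets, of which 21 were tested, 4 with a higher and 5 with a lower difference (42.9% called, median 0.011). Cdx1, a homeobox target of Wnt, had 32.8, 30.9 and 35.4 CPM in Eed KO at 12 h and 15.9, 14.6 and 14.9 CPM at 0 h, against 27.3, 30.1 and 37.0 CPM in 1A WT at 12 h and 1.78, 3.43 and 2.54 CPM at 0 h. Both lines ended at levels that overlap, and the difference of -2.47 ± 0.26 (edgeR adjusted p = 5.02e-10) came with a 0 h level that was higher in Eed KO (2.55, edgeR adjusted p = 1.82e-14). Axin2, the feedback inhibitor of the pathway, rose in 1A WT (1.06 ± 0.14, edgeR adjusted p = 1.26e-08) and did not pass in Eed KO (-0.076 ± 0.14, edgeR adjusted p = 0.667), a difference of -1.13 ± 0.20 (edgeR adjusted p = 3.51e-05, 0 h 0.62) that did not pass against V19 WT (-0.46, edgeR adjusted p = 0.128). Cdx2, Sp5 and Ccnd1 were also lower. Notum, a secreted Wnt inhibitor, was higher (0.98 ± 0.19, edgeR adjusted p = 0.000154): it did not pass in Eed KO and fell in 1A WT. It had 15.4, 12.2 and 10.3 CPM in Eed KO at 12 h and 12.1, 11.5 and 13.2 CPM at 0 h, against 14.2, 15.1 and 15.7 CPM in 1A WT at 12 h and 29.6, 28.6 and 31.0 CPM at 0 h. Lef1, Ascl2 and Myc were the other higher members.

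Among secreted signals, Nodal pathway genes had 5 lower and 1 higher difference in 13 tested (46.2% called, median -0.20). Lefty2, a secreted inhibitor of Nodal, rose in 1A WT and did not pass in Eed KO. It had 72.4, 58.0 and 64.5 CPM in Eed KO at 12 h and 58.4, 52.4 and 80.4 CPM at 0 h, against 67.4, 73.8 and 79.5 CPM in 1A WT at 12 h and 18.7, 21.2 and 16.3 CPM at 0 h (-1.94 ± 0.17, edgeR adjusted p = 7.84e-13). The 1A WT 0 h libraries alone are low. Its close paralog Lefty1, with which it may share reads, rose in both lines, to 35.3, 25.0 and 23.8 CPM in Eed KO, against 200.4, 206 and 194 CPM in 1A WT (-1.32 ± 0.23, edgeR adjusted p = 3.03e-05, 0 h -1.56). Pcsk6, a protease that processes Nodal, was lower (-0.93 ± 0.15, edgeR adjusted p = 1.88e-05, 0 h 1.32), as were Acvr1b (-0.58, 0 h 0.51) and Tdgf1. Skil, a repressor of Smad signalling and itself a Nodal target, was the higher member (1.26 ± 0.18, edgeR adjusted p = 1.03e-06, 0 h -1.68), since it fell in 1A WT and did not pass in Eed KO.

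Of 15 LIF and STAT3 genes, 4 had a lower and 2 a higher difference (40% called, median -0.21). Il6st, the gp130 subunit of the LIF receptor, was at 17.4, 29.6 and 37.0 CPM in Eed KO at 12 h and 52.9, 50.4 and 64.5 CPM at 0 h, against 91.7, 87.6 and 78.1 CPM in 1A WT at 12 h and 66.2, 63.1 and 73.7 CPM at 0 h. It fell in Eed KO (-1.29 ± 0.24, edgeR adjusted p = 0.000181). Tfcp2l1, Klf4 (-0.99, 0 h 0.56) and Socs3 (-0.33, 0 h -0.20) were lower too. Gadd45g, a stress-response gene, was higher (1.49 ± 0.26, edgeR adjusted p = 4.06e-05, 0 h 0.0082), as was Junb (0.52, 0 h -0.61). Of 12 FGF ligands and receptors, 4 were lower and none higher (33.3% called, median -0.99), with 9 fallen in Eed KO and 3 in 1A WT. Fgf17, a ligand, fell to 1.99, 0.883 and 1.82 CPM in Eed KO at 12 h, with 7.24, 6.10 and 8.78 CPM at 0 h, against 30.1, 29.9 and 25.6 CPM in 1A WT at 12 h and 32.0, 29.7 and 33.1 CPM at 0 h (-2.14 ± 0.32, edgeR adjusted p = 2.72e-06). Fgf10 (-2.20, 0 h 3.46), Fgfr3 (-1.87, 0 h 3.05) and Fgfr2 (-0.80, 0 h 0.77) were the others. Of 16 BMP and Id genes (12.5% called, near the 11.0% of all genes), Bmp7 (-1.21, 0 h 1.62) and Fst (-0.92, 0 h 1.95) were lower. Both calls were lost with the 12 libraries fitted alone. Of 10 genes of the Myc, Max and Mxd family, Myc, Mycn (0.50, 0 h -1.74) and Mxd4 (1.74, 0 h 1.77) were higher.

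**Figure D3:**
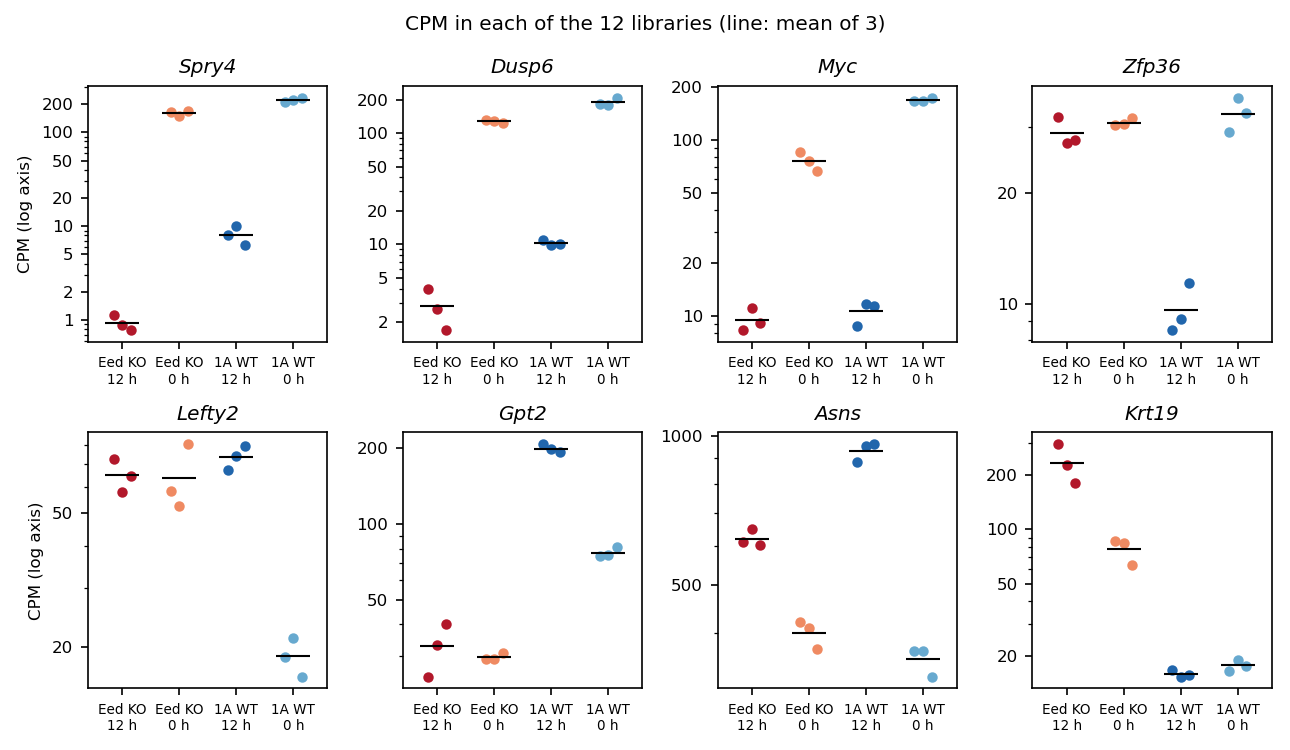
CPM on a log axis of 8 genes of signalling, amino acid stress and epithelial lists in each of the 12 libraries, in the order Eed KO at 12 h, Eed KO at 0 h, 1A WT at 12 h and 1A WT at 0 h, with a line at the mean of 3. Spry4 and Dusp6 are lowest in Eed KO at 12 h, Zfp36 is low in 1A WT at 12 h alone, Gpt2 is raised in 1A WT at 12 h, and Krt19 is high in Eed KO at both times.

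Of 15 PRC2 subunits, 4 had a higher and 1 a lower difference (33.3% called, against 11.0% of all genes, median -0.057). Rbbp4, a histone-binding subunit shared with other complexes, was higher (0.77 ± 0.17, edgeR adjusted p = 0.000829). It had 908, 646 and 503 CPM in Eed KO at 12 h and 453, 489 and 432 CPM at 0 h, against 622, 634 and 686 CPM in 1A WT at 12 h and 758, 748 and 715 CPM at 0 h. Its exons overlap those of Sync. Phf19 (1.15, 0 h -1.06), Ezhip (1.14, 0 h 2.07), an inhibitor of the complex, and Eed were the other higher ones, and the cofactor Aebp2 (-0.44, 0 h 0.20) was lower. The count was 2 higher and 1 lower without Eed KO 12 h replicate 1, and 2 higher and none lower with V19 WT in place of 1A WT. Of 21 PRC1 subunits (14.3% called), Bcor, a subunit of a variant complex, was higher (0.83 ± 0.20, edgeR adjusted p = 0.004), and Phc1 (-0.68 ± 0.13, edgeR adjusted p = 0.000293, 0 h -1.18) and Rybp (-0.97, 0 h -0.03) were lower. Bcor fell in both lines and stood at 108, 124 and 135 CPM in Eed KO at 12 h and 194, 185 and 195 CPM at 0 h, against 23.8, 23.2 and 22.2 CPM in 1A WT at 12 h and 62.0, 62.6 and 67.1 CPM at 0 h.

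Most developmental genes of the kind that PRC2 restrains were already high in Eed KO at 0 h. Of 72 bivalent developmental regulators tested, 52 were higher and 7 lower in Eed KO at 0 h (median 2.57) and 52 higher and 9 lower at 12 h (median 2.27). The difference of response was lower for 7 and higher for 1, Hand1 (1.75, 0 h 6.02), with a median of -0.27, and the 11.1% called is near the 11.0% of all genes. With V19 WT in place of 1A WT 5 were higher and 4 lower (median -0.082), and in the RUV-normalized values none was higher and 7 were lower. The 7 lower against 1A WT were Eomes, Cdx2, Lmx1b, Neurog1, Gata4, Irx2 and Olig2, and 4 of 72 were lower without 1A WT 12 h replicate 2. All 29 tested Hox genes were higher in Eed KO at 0 h and 28 at 12 h, and 1, Hoxc13, differed in response (-1.31, 0 h 3.00). These lists sum to little RNA: the 72 to 758 to 806 CPM in Eed KO at 12 h and 886 to 962 CPM at 0 h, against 218 to 220.0 CPM in 1A WT at 12 h and 274 to 280.0 CPM at 0 h.

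Eomes, a T-box factor of trophoblast and mesendoderm, had the largest change among them. Eed KO held 2.28, 2.94 and 3.65 CPM at 12 h and 19.4, 21.8 and 23.0 CPM at 0 h, against 3.47, 2.72 and 3.86 CPM in 1A WT at 12 h and 2.52, 3.92 and 3.56 CPM at 0 h. It fell in Eed KO alone, to a level that overlaps 1A WT (-2.79 ± 0.36, edgeR adjusted p = 8.59e-08). Cdx2, which specifies trophectoderm, had 35.9, 28.0 and 27.3 CPM in Eed KO at 12 h and 23.1, 27.0 and 18.7 CPM at 0 h, against 4.89, 4.48 and 4.88 CPM in 1A WT at 12 h and 1.04, 1.14 and 1.02 CPM at 0 h (-1.75 ± 0.40, edgeR adjusted p = 0.00192). It rose in both lines from very different starts.

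Primitive endoderm genes were part of this raised background. All 27 tested were higher in Eed KO at 0 h (median 3.42). Their sum was 4670.5 to 5574 CPM in Eed KO at 12 h and 8817 to 9474 CPM at 0 h, against 1425 to 1518 CPM in 1A WT at 12 h and 1808 to 2034 CPM at 0 h. Over 12 h 18 fell in Eed KO, against 8 in 1A WT. The difference of response was lower for 7 and higher for none (median -0.44), or 4 with replicate 2 alone for Eed KO at 12 h and 10 in the RUV-normalized values. Serpinh1, a collagen chaperone, had 389.8, 450.1 and 513 CPM in Eed KO at 12 h and 561, 541 and 533 CPM at 0 h, against 109, 115 and 104 CPM in 1A WT at 12 h and 101, 98.8 and 91.3 CPM at 0 h (-0.44 ± 0.10, edgeR adjusted p = 0.00195). Nid2, a basement membrane protein whose gene overlaps Rtraf, differed by -1.01 ± 0.22 (edgeR adjusted p = 0.00102, 0 h 0.50), and Gata4, Lamc1, Lama1, Cubn and Fst were the others. Sparc did not pass (0.16 ± 0.087, edgeR adjusted p = 0.252, 0 h 2.14). How far such cells or such expression contribute to the other differences was not tested.

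Trophoblast genes moved in both directions. Of 22 tested, 21 were higher in Eed KO at 0 h, 9 had a higher difference of response and 5 a lower one (63.6% called, median 0.15), or 4 and 6 in the RUV-normalized values. Their sum was 4389 to 4911 CPM in Eed KO at 12 h and 2323 to 2940.0 CPM at 0 h, against 782 to 792 CPM in 1A WT at 12 h and 551 to 621 CPM at 0 h. Krt19, a keratin of simple epithelia, had 295, 225 and 179.6 CPM in Eed KO at 12 h and 86.4, 83.6 and 63.6 CPM at 0 h, against 16.7, 15.4 and 15.7 CPM in 1A WT at 12 h and 16.6, 19 and 17.5 CPM at 0 h (1.73 ± 0.27, edgeR adjusted p = 8.38e-06). Krt18 (0.78, 0 h 2.79), Krt8 (0.62, 0 h 2.71), Hand1, Plac1 (2.61, 0 h 4.26), Tfap2a (1.52, 0 h 2.61), Cdkn1c, Ascl2 and Phlda2 were also higher. With V19 WT in place of 1A WT, Krt8 stood at 0.064 (edgeR adjusted p = 0.864), Plac1 at 0.17 (edgeR adjusted p = 0.973) and Hand1 at 0.88 (edgeR adjusted p = 0.347). Over 23 alternatives the call was lost in 6 for Plac1, 4 for Hand1, 2 for Krt8 and 1 for Krt18, and that of Cdkn1c in none. The lower members were the early trophectoderm factors Eomes, Cdx2, Elf3 and Tfap2c (-0.44, 0 h 0.49) and the receptor Fgfr2. Elf3, an ETS factor, rose in both lines (-0.54 ± 0.12, edgeR adjusted p = 0.00132). It had 417, 372 and 328 CPM in Eed KO at 12 h and 133, 141 and 119.5 CPM at 0 h, against 118, 119 and 118 CPM in 1A WT at 12 h and 27.1, 28.7 and 30.8 CPM at 0 h.

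Other marker lists were small, and shares called are to be read against the 11.0% of all genes. Of 11 visceral endoderm genes (36.4% called), Cyp26a1, a retinoic acid hydroxylase (2.67, 0 h 1.78), and Apoa2 (1.31, 0 h -2.25) were higher and Cubn (-1.51, 0 h 3.56) and Apoe were lower. Apoe, an apolipoprotein, rose in both lines, to 553, 475 and 494 CPM in Eed KO, against 1658, 1588 and 1698 CPM in 1A WT, from 371, 374 and 340.2 CPM in Eed KO and 584, 627 and 559 CPM in 1A WT at 0 h (-0.99 ± 0.16, edgeR adjusted p = 7.48e-06). Of 11 mesendoderm and organizer genes (27.3% called), Eomes, Cdx1 and Fgf17 were lower. Of 15 neural genes, Nes, the filament protein nestin, was higher, with 68.1, 69.9 and 57.8 CPM in Eed KO at 12 h and 42.5, 44.1 and 42.7 CPM at 0 h, against 25.9, 28.5 and 29.9 CPM in 1A WT at 12 h and 47.7, 55.5 and 48.1 CPM at 0 h (1.44 ± 0.20, edgeR adjusted p = 3.47e-07). It rose in Eed KO and fell in 1A WT. Of 15 genes of the 2-cell-like state, all 15 were higher in Eed KO at 0 h, at a summed 56.6 to 65.5 CPM, against 1.63 to 2.54 CPM in 1A WT, and Pramel6 (-3.11, 0 h 3.81) was lower in response.

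Of 30 germline genes that depend on methylation, 23 were higher in Eed KO at 0 h and 3 had a higher difference of response (Tex19.1, Tdrd1 and Syce1). The 10% called is near the 11.0% of all genes. Tdrd1 differed by 1.28 (0 h -0.027) and Syce1 by 0.77 (0 h 1.34). Tex19.1, a germline gene that restrains retrotransposons, had 400.4, 329 and 270.1 CPM in Eed KO at 12 h and 333, 342 and 291 CPM at 0 h, against 77.6, 84.9 and 85.0 CPM in 1A WT at 12 h and 158, 165 and 157 CPM at 0 h (1.00 ± 0.14, edgeR adjusted p = 4.94e-07). Of 45 imprinted genes, 8 were higher and 4 lower (26.7% called, median 0.22). Peg10, a paternally expressed gene derived from a retrotransposon, had 849.5, 1070.0 and 1216 CPM in Eed KO at 12 h and 1131, 1025 and 1189 CPM at 0 h, against 222, 203 and 201 CPM in 1A WT at 12 h and 479.8, 523 and 541 CPM at 0 h (1.21 ± 0.19, edgeR adjusted p = 5.47e-06). It fell in 1A WT and did not pass in Eed KO.

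Cdkn1c, the maternally expressed inhibitor of cyclin-dependent kinases, rose in Eed KO and did not pass in 1A WT. It had 304, 242 and 235 CPM in Eed KO at 12 h and 133, 137 and 105 CPM at 0 h, against 61.7, 62.3 and 64.9 CPM in 1A WT at 12 h and 71.9, 75.5 and 68.7 CPM at 0 h (1.25 ± 0.15, edgeR adjusted p = 3.11e-08). Slc38a4, an amino acid transporter expressed from the paternal allele, was higher (0.79 ± 0.14, edgeR adjusted p = 2.86e-05, 0 h 0.19). Impact, an inhibitor of the kinase Gcn2, was lower (-0.67 ± 0.12, edgeR adjusted p = 4.71e-05, 0 h -0.94). It did not pass in Eed KO, at 89.5, 107 and 102 CPM at 12 h, and rose in 1A WT, to 305, 291 and 316 CPM. Plagl1 (-2.41, 0 h -1.65), Copg2 (-0.59, 0 h 0.29) and Grb10 (-0.50, 0 h 0.64) were the other lower members.

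As background to the amino acid stress genes, Atf4 is a transcription factor translated when amino acids run short, and it switches on transporters and enzymes that make asparagine, serine and alanine. Of 29 tested genes of this list, 16 had a lower difference of response, 13 did not pass and none was higher, with a median of -0.46, against 5.78% of all genes lower and a median of -0.011. In their own responses 14 rose and 7 fell in Eed KO, against 22 risen and 2 fallen in 1A WT. The count was 13 to 17 without any 1 library and 11 in the RUV-normalized values. The list summed to 3340.4 to 3419.7 CPM in Eed KO at 12 h and 3197 to 3434 CPM at 0 h, against 5769 to 5821 CPM in 1A WT at 12 h and 4014 to 4069 CPM at 0 h, so the rise of the sum was seen in 1A WT.

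Asns, asparagine synthetase, had 611, 648 and 602 CPM in Eed KO at 12 h and 421, 409 and 371 CPM at 0 h, against 884, 953 and 962 CPM in 1A WT at 12 h and 369, 369 and 327 CPM at 0 h. It rose in both lines and less in Eed KO (-0.76 ± 0.11, edgeR adjusted p = 6.87e-07), from 0 h levels that did not differ by the test (0.17, edgeR adjusted p = 0.0538). Gpt2, which makes alanine, rose in 1A WT alone. It had 24.8, 33.3 and 40.2 CPM in Eed KO at 12 h and 29.3, 29.3 and 30.7 CPM at 0 h, against 208, 199 and 193 CPM in 1A WT at 12 h and 74.6, 75.3 and 81.4 CPM at 0 h (-1.20 ± 0.14, edgeR adjusted p = 6.22e-09). Psat1, of serine synthesis, differed by -0.57 ± 0.092 (edgeR adjusted p = 9.35e-06, 0 h -0.53) and Slc7a1, an arginine transporter that fell in Eed KO, by -1.16 ± 0.19 (edgeR adjusted p = 1.7e-05, 0 h 1.38). Atf4 itself was lower (-0.45, 0 h -0.59), with Ddit3 (-1.06, 0 h -0.37), Sesn2 (-0.97, 0 h -0.016), Mthfd2 (-0.73, 0 h -0.48), Slc7a5 (-0.71, 0 h -0.14) and Vldlr (-2.07, 0 h 0.98).

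The promoters of this list were read because its 16 called members were all lower. Promoter windows of 300 bases (250 before and 50 after the start) came from RefSeq (GRCm38.p6), and 24 of the 29 genes had one. The CARE core TGATGNAA, the element that Atf4 binds with C/EBP factors, was found on either strand in 6 of these 24 windows (25.0%), in 3 of the 14 windows of called members (21.4%) and in 247 of 11427 windows of all genes tested (2.2%). A match is a description of letters and not a site of binding. The list was chosen as Atf4 genes, so its share against all genes does not bear on the difference of response. The share was not higher in called members (21.4%) than in the list (25.0%). The 3 called members are shown, with the motif in capitals.
Asns (chr6:7693160-7693459, minus strand): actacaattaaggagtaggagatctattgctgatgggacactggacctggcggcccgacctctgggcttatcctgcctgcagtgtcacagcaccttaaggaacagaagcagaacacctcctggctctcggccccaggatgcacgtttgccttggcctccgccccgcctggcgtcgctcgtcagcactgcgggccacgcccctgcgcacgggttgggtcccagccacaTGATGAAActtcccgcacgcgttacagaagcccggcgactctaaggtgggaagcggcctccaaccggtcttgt
Chac1 (chr2:119350992-119351291, plus strand): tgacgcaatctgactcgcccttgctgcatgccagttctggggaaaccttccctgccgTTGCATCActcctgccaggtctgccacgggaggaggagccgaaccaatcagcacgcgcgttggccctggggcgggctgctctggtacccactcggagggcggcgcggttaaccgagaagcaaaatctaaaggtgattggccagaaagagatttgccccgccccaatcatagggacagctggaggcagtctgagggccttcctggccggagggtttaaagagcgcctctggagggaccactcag
Pck2 (chr14:55540016-55540315, plus strand): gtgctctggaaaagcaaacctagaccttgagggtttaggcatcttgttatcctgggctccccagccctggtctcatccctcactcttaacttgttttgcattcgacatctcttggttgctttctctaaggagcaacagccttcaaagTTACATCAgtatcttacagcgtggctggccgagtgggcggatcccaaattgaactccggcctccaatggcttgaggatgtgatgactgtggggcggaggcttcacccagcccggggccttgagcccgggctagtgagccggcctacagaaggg
The match begins 23 bases before the start in Asns, and lies on the opposite strand in Chac1, 193 bases before, and in Pck2, 103 bases before. Chac1, which degrades glutathione, had 11.4, 12.8 and 14.2 CPM in Eed KO at 12 h and 17.5, 14.8 and 13.0 CPM at 0 h, against 71.2, 63.4 and 61.0 CPM in 1A WT at 12 h and 37.9, 29.7 and 34.3 CPM at 0 h (-1.16 ± 0.19, edgeR adjusted p = 1.93e-05). Pck2, the mitochondrial phosphoenolpyruvate carboxykinase, differed by -0.42 ± 0.14 (edgeR adjusted p = 0.0462, 0 h -0.22). Of 16 Wnt target genes with a window, 2 (12.5%) held the TCF/LEF motif CTTTGAA or CTTTGAT, against 659 of all 11427 (5.8%).

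The main glucose transporters differed in opposite directions. Of 28 glycolysis genes, 7 had a lower and 3 a higher difference (35.7% called, median -0.068). Slc2a1, the widely expressed glucose transporter Glut1, fell less in Eed KO. It had 523, 549.7 and 457 CPM at 12 h and 677, 691 and 578 CPM at 0 h, against 213, 219.6 and 203 CPM in 1A WT at 12 h and 479, 509 and 492 CPM at 0 h (0.87 ± 0.11, edgeR adjusted p = 5.63e-08). Slc2a3, the high-affinity transporter Glut3, rose in 1A WT and did not pass in Eed KO. It had 1577, 1773 and 1635 CPM in Eed KO at 12 h and 1579, 1552 and 1506 CPM at 0 h, against 1468, 1516 and 1446 CPM in 1A WT at 12 h and 678, 700.3 and 727 CPM at 0 h (-0.97 ± 0.12, edgeR adjusted p = 8.05e-08). Ldha, lactate dehydrogenase, took opposite directions (0.64 ± 0.13, edgeR adjusted p = 0.000393, 0 h -0.37), and Pdk1 (0.62, 0 h -1.78) was the third higher member. Pfkp, a phosphofructokinase whose exons overlap Pitrm1, was lower (-1.14 ± 0.16, edgeR adjusted p = 3.51e-07, 0 h 1.16), with Eno2 (-1.40, 0 h 2.35), Ldhb (-0.68, 0 h -0.31), Ero1a (-0.60, 0 h 0.58), Hk1 (-0.59, 0 h 1.08) and P4ha1 (-0.54, 0 h 2.59). Of 32 genes of cholesterol and fatty acid synthesis, 4 were higher and none lower (12.5% called, near the 11.0% of all genes). The higher count was 2 without Eed KO 12 h replicate 1 and 7 without replicate 3. Mvd, an enzyme of the mevalonate pathway, rose in both lines and more in Eed KO (0.75 ± 0.19, edgeR adjusted p = 0.00553, 0 h 0.065), and Fdps (0.58, 0 h -0.057), Cyp51 (0.53, 0 h -0.013) and Hmgcs1 (0.40, 0 h -0.22) were the others.

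Of 20 genes of the unfolded protein and heat shock responses, 6 were higher in Eed KO, none lower and 14 did not pass (median 0.32). Xbp1, a transcription factor of the unfolded protein response, had 87.2, 77.2 and 73.7 CPM in Eed KO at 12 h and 80.1, 78.4 and 73.1 CPM at 0 h, against 45.9, 47.6 and 43.5 CPM in 1A WT at 12 h and 95.8, 91.8 and 89.3 CPM at 0 h (1.05 ± 0.12, edgeR adjusted p = 6.22e-09). The 1A WT 12 h libraries alone are low. Hspa5, the chaperone BiP, whose exons overlap Rabepk, differed by 0.62 ± 0.12 (edgeR adjusted p = 0.000129, 0 h 0.073) and Hspa1b by 1.24 ± 0.24 (edgeR adjusted p = 0.000224, 0 h 0.33), the last a near copy of Hspa1a whose reads may be split. Hsp90aa1 (0.46, 0 h -0.51), Hsp90b1 (0.39, 0 h 0.034) and Calr (0.35, 0 h 0.13) were the others, and the count was 4 without Eed KO 0 h replicate 3. Of 23 p53 genes and targets (30.4% called), 5 were higher and 2 lower, with 3 higher without Eed KO 12 h replicate 1. Zmat3, an RNA-binding target of p53 that overlaps 4930429B21Rik, fell less in Eed KO (0.68 ± 0.18, edgeR adjusted p = 0.00813, 0 h -0.47), and the inhibitor Cdkn1a was lower (-0.43, 0 h 1.38).

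Among regulators of the cell cycle, 3 of 22 Cdk inhibitors and G1 cyclins were higher (Ccnd2, Cdkn1c and Cdkn2b) and 3 lower (Cdk6, Ccnd1 and Cdkn1a), or 27.3% called. Cdkn2b differed by 1.11 (0 h 1.06) and Cdk6 by -0.54 (0 h -0.54). Of 31 S and G2/M genes, 6 were lower and none higher (19.4% called, median -0.19): Mcm2, Mcm3, Mcm5, Mcm7, Rrm2 and Plk1. The 6 became 3 without Eed KO 12 h replicate 1, 2 in the RUV-normalized values and 0 with the 12 libraries fitted alone. Of the 36 genes tested for ribosome biogenesis or as Myc targets, 4 were lower (Polr1b, Nolc1, Noc2l and Pes1), or 11.1%, near the 11.0% of all genes called. The count was 1 without Eed KO 12 h replicate 1 and 9 without replicate 3, although 35 of the 36 were lower in Eed KO at 0 h. Of 56 cytosolic ribosomal protein genes, 35 rose in Eed KO and 26 in 1A WT, and edgeR and DESeq2 each called 0 for the difference of response, with 1 higher and 0 lower at an unadjusted edgeR p under 0.05 (median 0.11). Of 32 nuclear genes of oxidative phosphorylation, 26 rose in Eed KO and 17 in 1A WT. Ndufs3 (0.62 ± 0.20, edgeR adjusted p = 0.0349, 0 h -0.38) was higher and Uqcrc2 (-0.35 ± 0.11, edgeR adjusted p = 0.0199, 0 h 0.14), which overlaps Pdzd9, lower. The 6.25% called is under the 11.0% of all genes. Of 7 mitochondrially encoded genes 1 was higher, ND5 (0.84, 0 h 0.16), which overlaps ND6 and whose call was lost under 14 of 23 alternatives.

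Interferon and viral RNA sensing genes had 7 higher and 1 lower difference in 29 tested (27.6% called, median 0.90). Ifitm1, a membrane protein that blocks virus entry, rose in Eed KO. It had 58.7, 55.6 and 74.7 CPM at 12 h and 20.1, 21.6 and 21.9 CPM at 0 h, against 121, 112 and 113 CPM in 1A WT at 12 h and 103, 102 and 106 CPM at 0 h (1.42 ± 0.21, edgeR adjusted p = 3.25e-06). It thus moved towards the level of 1A WT. Rsad2 (viperin) had 9.40, 7.36 and 7.29 CPM in Eed KO at 12 h and 1.89, 1.57 and 2.19 CPM at 0 h, against no read in any 1A WT library at 12 h and 0.444, 0.490 and 0.763 CPM at 0 h. Its call held under every alternative. Ddx58, the sensor RIG-I, was the lower member (-1.24 ± 0.16, edgeR adjusted p = 5.63e-08, 0 h 0.16), falling to 14.8, 14.9 and 12.8 CPM in Eed KO, against 29.7, 27.7 and 31.9 CPM in 1A WT, from 0 h levels that did not differ by the test. The 7 were 3 in the RUV-normalized values and 3 with V19 WT in place of 1A WT.

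Of 24 contractile actin genes and YAP targets, 11 had a higher difference in Eed KO, none a lower one and 13 did not pass (median 0.59), with 13 risen and 7 fallen in Eed KO and 3 risen and 10 fallen in 1A WT. The count was 10 or 11 without any 1 library, 6 in the RUV-normalized values and 7 higher with 1 lower against V19 WT. The median exon length of the list was 2165 bases, against 3075 for all higher calls, and with the trend on length taken out 12 were higher. Tpm1, a tropomyosin of actin filaments, had 558, 580.2 and 494 CPM in Eed KO at 12 h and 329.6, 355 and 294 CPM at 0 h, against 311, 312 and 326 CPM in 1A WT at 12 h and 314, 309.7 and 278 CPM at 0 h. It rose in Eed KO alone (0.66 ± 0.11, edgeR adjusted p = 1.88e-05). Ccn2, a secreted YAP target, had 318, 307 and 250.3 CPM in Eed KO at 12 h and 186, 205 and 176 CPM at 0 h, against 86.5, 95.9 and 98.0 CPM in 1A WT at 12 h and 111, 109 and 92.3 CPM at 0 h (0.79 ± 0.14, edgeR adjusted p = 2.99e-05). Anxa1, an annexin, took opposite directions (1.20 ± 0.18, edgeR adjusted p = 3.4e-06, 0 h 1.94), and Zyx, a focal adhesion protein whose exons overlap Epha1, fell less in Eed KO (1.12 ± 0.20, edgeR adjusted p = 8.75e-05, 0 h 1.25). Of 24 genes of the epithelial and mesenchymal switch, Cdh1, which encodes E-cadherin (0.60 ± 0.11, edgeR adjusted p = 5.17e-05, 0 h -0.0046), Cldn3 (0.87, 0 h 2.12), Cldn7 (0.96, 0 h 1.29) and Esrp1 (0.45, 0 h -0.40) were higher, all of epithelial type, and the fibronectin receptor subunit Itga5 was lower (-0.66 ± 0.14, edgeR adjusted p = 0.000621, 0 h 0.60). The other 19 did not pass, and the higher count was 1 in the RUV-normalized values and 9 with V19 WT in place of 1A WT.

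Promoters of the immediate early and contractile lists were read together, since Srf acts on both through the CArG box. Of their 42 genes 34 had a window, and 7 of these (20.6%) held a CArG box, against 145 of 11427 windows of all genes tested (1.3%). Because the lists were picked for Srf, this share does not bear on the difference of response. Among the 22 called members 19 had a window and 5 held the box (26.3%): Zfp36, Srf, Cnn2, Myl9 and Acta1. Zfp36 and Srf are shown as one member with 1 box and the gene with 2, with the boxes in capitals.
Zfp36 (chr7:28379179-28379478, minus strand): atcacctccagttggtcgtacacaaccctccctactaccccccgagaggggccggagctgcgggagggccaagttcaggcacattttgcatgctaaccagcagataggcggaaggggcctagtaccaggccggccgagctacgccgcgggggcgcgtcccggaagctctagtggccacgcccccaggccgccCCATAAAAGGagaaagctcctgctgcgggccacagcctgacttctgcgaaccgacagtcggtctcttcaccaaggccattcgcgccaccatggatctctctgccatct
Srf (chr17:46556113-46556412, minus strand): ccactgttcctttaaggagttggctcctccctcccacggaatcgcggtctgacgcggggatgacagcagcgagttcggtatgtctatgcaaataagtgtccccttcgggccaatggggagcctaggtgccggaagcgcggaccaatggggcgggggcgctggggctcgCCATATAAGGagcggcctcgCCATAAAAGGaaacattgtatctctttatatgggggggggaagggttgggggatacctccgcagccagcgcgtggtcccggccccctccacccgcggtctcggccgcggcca
The box begins 58 bases before the start in Zfp36, and 82 and 62 bases before it in Srf. The contractile genes with the box were Cnn2, a calponin (0.82 ± 0.16, edgeR adjusted p = 0.000324, 0 h -0.21), Myl9, a myosin light chain (0.93 ± 0.22, edgeR adjusted p = 0.00308, 0 h -0.48), and Acta1, skeletal actin (1.26 ± 0.34, edgeR adjusted p = 0.00901). Acta1 had 7.41, 13.8 and 16.3 CPM in Eed KO at 12 h and 5.82, 8.19 and 4.90 CPM at 0 h, against 11.2, 10.2 and 8.74 CPM in 1A WT at 12 h and 11.0, 11.9 and 12.0 CPM at 0 h.

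**Figure D4:**
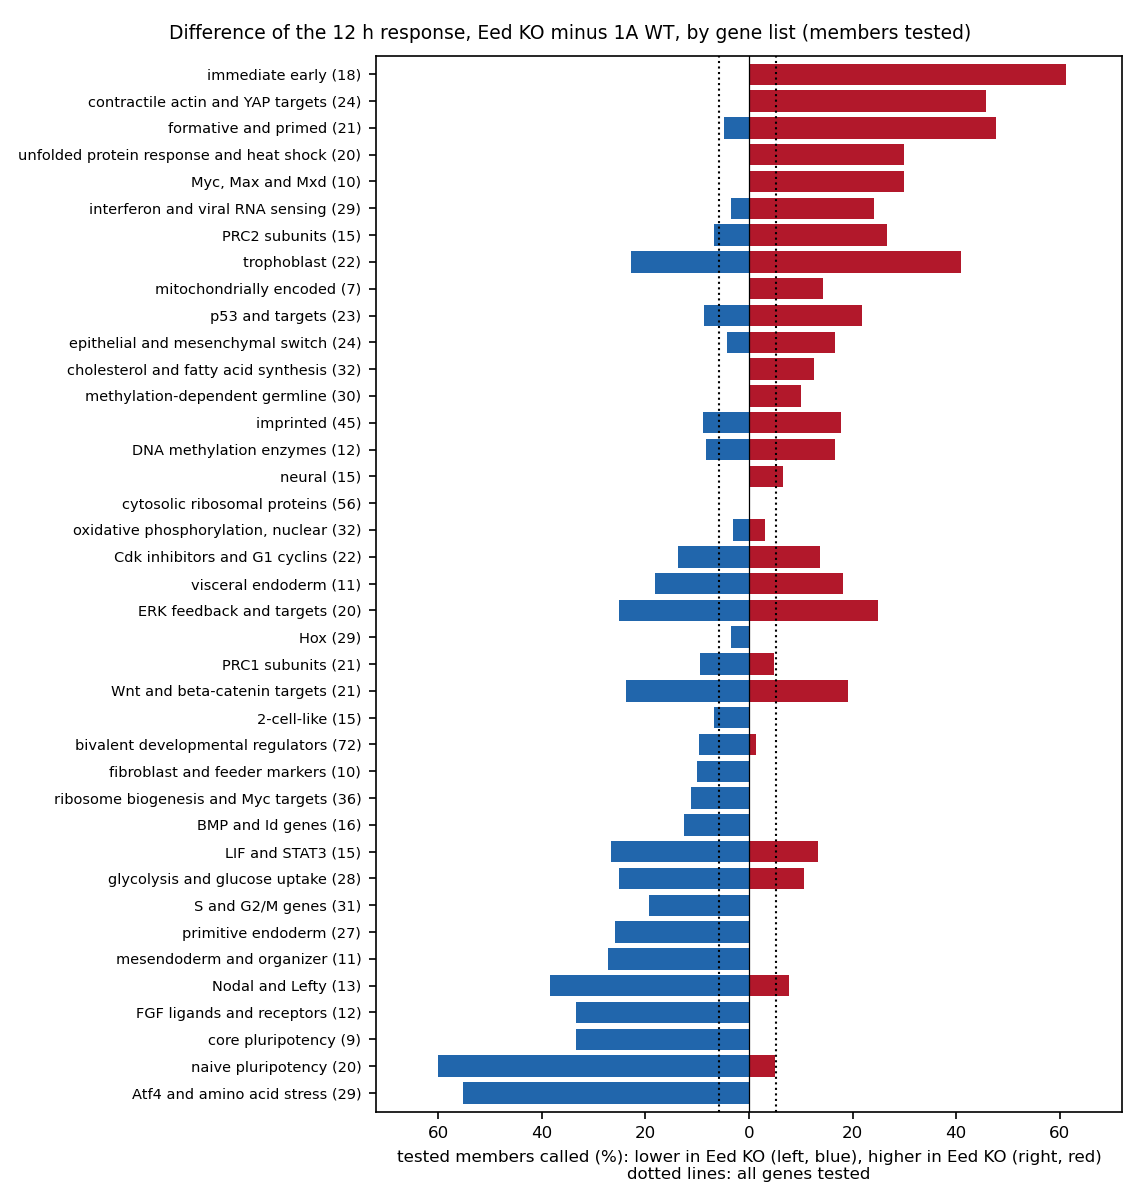
Share of the tested members of each of 39 gene lists with a called difference of response, in percent, to the left where lower in Eed KO and to the right where higher, with the number tested in parentheses and dotted lines at the shares over all genes tested (5.78% lower and 5.26% higher). Immediate early, contractile and formative lists reach furthest to the right, and the Atf4 and naive pluripotency lists furthest to the left.

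The same question was asked of Ezh2 KO. Its 12 h response differed from that of 1A WT at 428 genes (2.84%), 228 higher (1.51%) and 200 lower (1.33%), a comparison that uses the same 1A WT libraries. Replicates 1 and 3 of Ezh2 KO at 12 h also deviated from their group mean, by 0.194 and 0.206 log2 units, with slopes on log2 exon length of -0.106 and 0.089. No Ezh2 KO library was left out in any alternative, and offsets for a trend on gene length gave 764 calls in place of 428. Tested directly, the responses of Eed KO and Ezh2 KO differed at 1353 genes (8.97%), 611 higher in Eed KO (4.05%) and 742 lower (4.92%), or 695 with replicate 2 alone for Eed KO at 12 h. The 29 Atf4 genes had a median difference of -0.025 in Ezh2 KO against 1A WT, and 14 were lower in Eed KO than in Ezh2 KO in the direct test. Of 20 naive genes 3 were lower in Ezh2 KO against 1A WT, and 11 were lower in Eed KO than in Ezh2 KO. Of 24 contractile genes and YAP targets 1 was higher in Ezh2 KO and 8 were higher in the direct test. The formative and primed list moved in both knockouts. Of its 21 genes 8 were higher and 3 lower in Ezh2 KO against 1A WT (median 0.63), beside 10 higher and 1 lower in Eed KO (median 0.47). In the direct test 8 were higher and 3 lower in Eed KO.

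Single genes show where the knockouts part. Gpt2 differed from 1A WT by -1.20 ± 0.14 (edgeR adjusted p = 6.22e-09) in Eed KO and by -0.021 ± 0.13 (edgeR adjusted p = 0.981) in Ezh2 KO, and the direct difference was -1.18 ± 0.14 (edgeR adjusted p = 1.04e-08). Sox2 gave -0.049 ± 0.08 (edgeR adjusted p = 0.868) in Ezh2 KO and -0.90 ± 0.082 (edgeR adjusted p = 1.24e-11) between the knockouts, and Lefty2 gave -0.23 ± 0.18 (edgeR adjusted p = 0.631) and -1.71 ± 0.17 (edgeR adjusted p = 1.26e-10). Other genes differed from 1A WT in both. Otx2 had a difference of 2.76 ± 0.37 (edgeR adjusted p = 7.32e-07) in Ezh2 KO. Ccnd2 had one of 2.02 ± 0.20 (edgeR adjusted p = 1.86e-10) and Tbx3 one of -1.55 ± 0.15 (edgeR adjusted p = 7.47e-11). Eed KO differed further from 1A WT than Ezh2 KO did in each (0.96 ± 0.23, edgeR adjusted p = 0.00291, 0.85 ± 0.17, edgeR adjusted p = 0.000357 and -0.72 ± 0.14, edgeR adjusted p = 0.000212). Zic2 gave 1.73 ± 0.17 (edgeR adjusted p = 1.78e-10) in Ezh2 KO, and the direct difference did not pass (-0.018 ± 0.16, edgeR adjusted p = 0.98). Ddx58 gave -1.14 ± 0.15 (edgeR adjusted p = 2.68e-07) in Ezh2 KO and -0.098 ± 0.15 (edgeR adjusted p = 0.766) directly. Peg10 took opposite sides, at 1.21 ± 0.19 (edgeR adjusted p = 5.47e-06) in Eed KO and -0.77 ± 0.19 (edgeR adjusted p = 0.0124) in Ezh2 KO.

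Few genes were called between the 12 h responses of V19 WT and 1A WT: 17 genes (0.113%), 8 higher and 9 lower, with 832 at an unadjusted p under 0.05. With V19 WT in place of 1A WT, 1559 genes were called for the Eed KO difference, and 1011 of these were among the 1665, all of the same sign. Against V19 WT, Otx2 differed by 2.97 (edgeR adjusted p = 2.83e-10), Esrrb by -1.67 (edgeR adjusted p = 3.18e-13), Asns by -0.74 (edgeR adjusted p = 1.42e-06) and Spry4 by -2.11 (edgeR adjusted p = 4.94e-06). Tbx3 was one of the 17: its 12 h response was 0.78 in V19 WT and 1.75 in 1A WT (-0.98, edgeR adjusted p = 0.000289). The size of its difference thus depends on the wild-type line, at -1.29 against V19 WT (edgeR adjusted p = 1.28e-09) and -2.27 against 1A WT.

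Later times were read as values of the same difference since 0 h. Otx2 stood at 3.97 ± 0.33, 2.76 ± 0.30 and 2.01 ± 0.37 at 24, 48 and 96 h, and Pou3f1 at 3.56 ± 0.20, 3.95 ± 0.22 and 2.66 ± 0.22. Dnmt3a stood at 2.62 ± 0.14, 3.09 ± 0.15 and 2.41 ± 0.14 and Ccnd2 at 3.02 ± 0.18, 3.73 ± 0.21 and 2.55 ± 0.21, all with the sign of 12 h. Nanog was at -1.70 ± 0.12, -2.13 ± 0.12 and -0.98 ± 0.12. Tbx3 was at -2.81 ± 0.15, -3.15 ± 0.15 and -3.00 ± 0.15 and Esrrb at -1.53 ± 0.14, -1.40 ± 0.14 and -0.71 ± 0.13. Sox2 was at -0.94 ± 0.081, -0.35 ± 0.081 and 0.19 ± 0.081, without the sign of 12 h at 96 h. Gpt2 was at -1.20 ± 0.14, -0.85 ± 0.14 and 0.062 ± 0.14, likewise, and Asns at -1.51 ± 0.11, -2.02 ± 0.11 and -0.98 ± 0.11. Cdkn1c was at 3.08 ± 0.16, 4.63 ± 0.16 and 4.14 ± 0.16, above its 12 h value throughout, and Krt19 at 1.92 ± 0.27, 1.53 ± 0.26 and 1.5 ± 0.26. Spry4, the ERK feedback inhibitor, was at -2.17 ± 0.27, 0.93 ± 0.34 and -0.36 ± 0.18, without the sign of 12 h at 48 h.

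**Figure D5:**
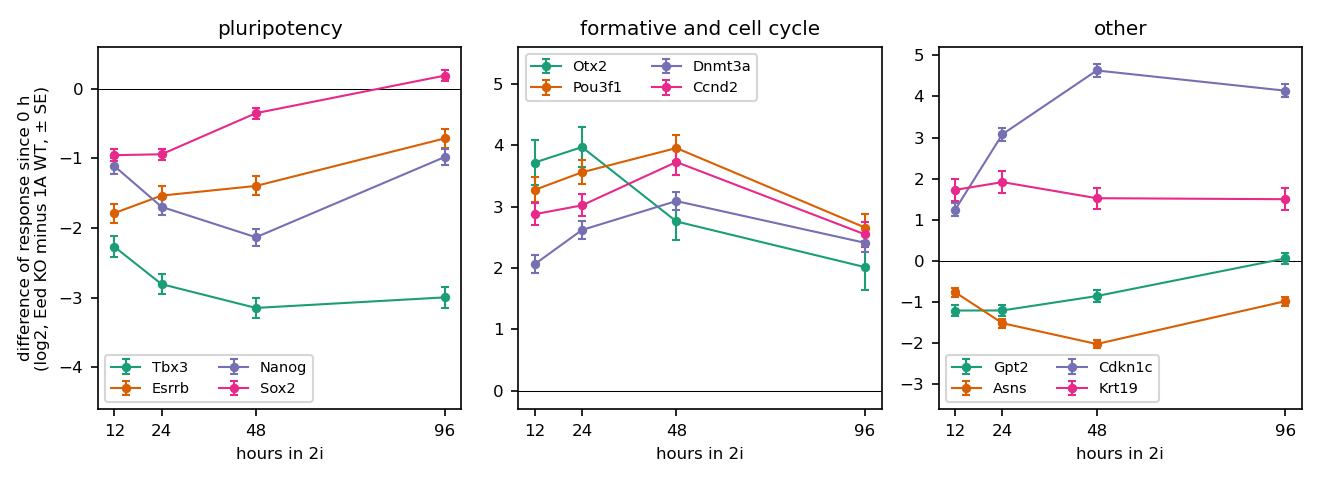
Difference of response since 0 h (log2, Eed KO minus 1A WT, ± SE, 3 libraries per group) at 12, 24, 48 and 96 h of 2i for 12 genes in 3 panels, with a line at 0. Otx2, Pou3f1, Dnmt3a and Ccnd2 stay above 2 at each time, Tbx3 lies at or below -2.27, Sox2 and Gpt2 end at 0.19 and 0.062, and Cdkn1c is above 3 from 24 h on.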

How the data were processed

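Polyadenylated RNA of mouse embryonic stem cells was sequenced as single reads. The authors deposited raw counts, which are whole-number read counts per gene. The submitters' processing notes name the builds GRCm39 and mm39 and the tools featureCounts 2.0.3, STAR 2.7.10b, DESeq2 and MultiQC 1.14. Whether strand was used in counting is not given in the sources used here. A second deposited table holds a score: whole numbers left after unwanted variation was removed (RUV), with settings not stated. A deposited table of transformed counts was not used here. Every column matched a label, so 0 were unmatched.

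Of 50559 genes, 15083 passed edgeR's filterByExpr (minimum count 10, minimum total 15). The test was the quasi-likelihood F test of edgeR 4.0.16 (R 4.3.3) with TMM factors, in 1 model of 60 libraries, 20 groups and 40 residual degrees of freedom, and p-values were adjusted by Benjamini-Hochberg over all of these genes. SE is the log2 value divided by the root of its F. The difference of response was the main test, beside the 2 responses, the lines at 0 and 12 h, Ezh2 KO, and V19 WT. On simulated counts for this difference (14987 genes), the fit recovered 20.9% of 1.5-fold changes, 58.2% of 2-fold changes and 90.9% of 4-fold changes, with 5 false calls of 118. Small differences were thus often missed in the simulated counts, and a gene without a call is not shown to be equal. The part of depth in this was not tested. The rates describe the simulated counts and were not shown to hold for the wider spread among the Eed KO libraries at 12 h.

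The comparison and its 39 gene lists were chosen with earlier results of these data known. Chosen to be named were Eed, Ezh2 and Suz12, up to 12 called genes per direction with the largest differences (at least 5 CPM, libraries not overlapping, predicted genes left out), and per list up to 4 called members with the smallest adjusted p and the 3 of highest level. Not all genes so chosen are described above, and those left out include members that did not pass, such as Dppa5a and Trim28. Further members are named only to complete a count or because a promoter motif was found, after their values were seen. Lists are described by counts and medians, without a set test. The check of promoter CpG content was void, because 77.2% of higher and 78.6% of lower genes had a promoter in the RefSeq table, under the share of 80% required.

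Replicate numbers are shared between groups, but labels tie no number to a day or passage, and deviations of same-numbered libraries correlated at -0.34 to 0.26, so groups were treated as unpaired. All 12 pairs of libraries within a group differed beyond sampling noise (chi-square per degree of freedom 1.57 to 18.1). P-values rest on 1 spread per gene, pooled over the cultures of all 60 libraries and not measured in Eed KO at 12 h alone. The 12 libraries fitted alone gave 1381 calls, against 1665. The alternatives were DESeq2 1.42.0, the 12 libraries alone, a block on replicate number, RLE factors, all genes without a filter, genes averaging at least 1 CPM, limma 3.58.1 on log2 of the RUV score (pseudocount 1), and leaving out each of the 12 libraries. Replicate 2 alone for Eed KO at 12 h, offsets for a trend on gene length, and V19 WT in place of 1A WT were chosen after seeing the data.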

Additional observations from a re-analysis of the deposited data

Results flagged for a closer look

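The difference between the 12 h responses of Eed KO and 1A WT was itself tested, and 1665 genes passed. The same test gave 428 genes for Ezh2 KO against 1A WT, 1353 for Eed KO against Ezh2 KO and 17 for V19 WT against 1A WT.

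In 9 of the 141 named genes that were called, both lines responded and in opposite directions. Eed KO rose and 1A WT fell for Cyp26a1 (log2 difference 2.67), Mxd4 (1.74), Nes (1.44), Anxa1 (1.20) and Ldha (0.64). Eed KO fell and 1A WT rose for Nt5e (-2.47), Tbx3 (-2.27), Fgf10 (-2.20) and Esrrb (-1.79). With V19 WT in place of 1A WT the calls of Cyp26a1, Mxd4, Ldha and Fgf10 were lost. Nt5e had a 12 h response of -0.33 in V19 WT, against 1.26 in 1A WT, and its difference was -0.88 against V19 WT (edgeR adjusted p = 0.0285).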

How the results depend on the processing

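All calls shared between the 1665 genes and each alternative had the same sign. Leaving out 1 library gave 1165 to 2553 calls in all and 596 to 1380 lower calls, the lowest without Eed KO 12 h replicate 1 and the highest without Eed KO 12 h replicate 3. Replicate 2 alone for that group gave 1101 calls, 498 of them higher, and 695 for Eed KO against Ezh2 KO. The authors' RUV-normalized values gave 3015 calls between the lines at 0 h and 3800 at 12 h. Ezh2 KO against 1A WT had 285 to 360 calls without 1 of the 1A WT libraries (lowest without 1A WT 12 h replicate 1) and 764 with length-trend offsets. V19 WT against 1A WT had 6 to 16 without 1 of the 1A WT libraries (lowest without 1A WT 12 h replicate 3), 29 with DESeq2 and 40 with length-trend offsets. The cause of these shifts was not tested. Replicate numbers do not pair the samples (4 of 18 same-number pairs correlated above 0.1), and a replicate block gave 1637 calls, or 1607 with a block within each line.

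Of the 141 called named genes, 79 kept their call in every alternative, and 1 reversed, Pdzrn3, at -0.097 with V19 WT in place of 1A WT. That setting ended the call of 28, the RUV-normalized values of 25 and replicate 2 alone of 22. Depth limits genes of low count: a library holds 3356091 to 7128250 reads.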
